A study of Mus musculus with 8 samples.

Results

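Here 10 genes of the p53 pathway and of neuronal death were followed in mouse sensory ganglia (lumbar dorsal root ganglia 4 and 5, strain C57BL/6) collected 3 days after sciatic nerve axotomy or a sham operation. They are Trp53, which encodes p53, its targets Cdkn1a, Mdm2, Ccng1 and Gadd45a, the related Gadd45g, and the BH3-only genes Bbc3, Pmaip1, Hrk and Bcl2l11. They were taken by name from the deposited table, and all 10 were found among its 21878 gene symbols. The axotomy is called SNI, as in the sample names. All mice carried floxed Myh9 and Myh10, the heavy chain genes of non-muscle myosin IIA and IIB. WT mice had no Cre, and dKO mice also carried Advillin-Cre, which acts in cells that express Avil, mainly sensory neurons, so other cells of the ganglion keep both genes. Each genotype was studied after sham surgery and after SNI, which gives 4 groups of 2 libraries (WT sham and WT SNI, dKO sham and dKO SNI), and ages were not given. The labels do not tie the 2 libraries of a group to different animals. The p-values therefore reflect library-to-library spread alone, and this may be technical.

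p53 is a transcription factor that DNA damage and other stresses stabilise. It switches on genes that stop the cell cycle, such as Cdkn1a, genes that restrain p53 itself, such as Mdm2, and genes that start apoptosis, such as Bbc3 and Pmaip1. BH3-only proteins bind the BCL2-type survival proteins or activate BAX and BAK, which then open the outer mitochondrial membrane. In neurons that lose trophic support, JNK signalling and c-Jun are known to raise Hrk and Bcl2l11. Adult sensory neurons, unlike retinal ganglion cells, mostly survive cutting of their peripheral axon.

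The bases before the start sites of 4 members are shown because p53 or ATF-type factors are known to act on such sites. A p53 site is made of a pair of 10-base half-sites. The capitals mark the best pair of adjacent half-sites in Cdkn1a and Bbc3, and the letters TGATGTAA, a variant of the ATF site, in Hrk. The Gadd45a stretch held none of these. Sequences are from RefSeq (GRCm38.p6), on the gene's strand, and stop where an exon of the GENCODE M21 annotation begins. Hrk is cut to 30 bases because its window lies in an annotated exon.
Cdkn1a, chr17:29090729-29090975, plus strand: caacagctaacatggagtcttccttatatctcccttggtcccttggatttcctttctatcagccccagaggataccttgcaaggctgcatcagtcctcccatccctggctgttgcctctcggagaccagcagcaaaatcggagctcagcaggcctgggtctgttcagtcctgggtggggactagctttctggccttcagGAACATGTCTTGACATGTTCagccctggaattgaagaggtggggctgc
Bbc3, chr7:16309333-16309582, plus strand: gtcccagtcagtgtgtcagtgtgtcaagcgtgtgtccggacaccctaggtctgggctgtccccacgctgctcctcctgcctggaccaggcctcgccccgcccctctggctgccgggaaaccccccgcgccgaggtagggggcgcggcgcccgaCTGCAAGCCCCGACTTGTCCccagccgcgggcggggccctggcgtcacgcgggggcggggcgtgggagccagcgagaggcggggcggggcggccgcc
Gadd45a, chr6:67037458-67037657, minus strand: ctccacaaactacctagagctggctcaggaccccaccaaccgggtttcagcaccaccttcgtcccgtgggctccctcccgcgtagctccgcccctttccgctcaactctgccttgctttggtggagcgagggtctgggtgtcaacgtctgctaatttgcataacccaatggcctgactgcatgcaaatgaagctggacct
Hrk, chr5:118169639-118169668, plus strand: cccgggccggaTGATGTAAccccctccccg

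The table of promoters held 13 windows for 9 of the 10 members, and the 250 bases before each start were searched on both strands. The site in window 1 of Cdkn1a differed from the p53 pattern at 1 of 20 positions, and 0.0457% of all 32851 windows held a pair that close. Window 2 of Cdkn1a, at a later start, held no such pair and no exact half-site. The pair in window 1 of Bbc3 had 3 mismatches, as did a pair before the start of Trp53, and 0.475% of windows held a pair with at most 3. Windows 2 and 3 of Bbc3 held none. At least 1 exact half-site was present in 7.13% of windows. Window 1 of Cdkn1a held 2, and Trp53 (GGACTTGCCC), Mdm2 (GAACTTGCCT), Ccng1 (GGGCAAGCCT) and Gadd45a (GGGCTAGCCC, downstream of the stretch shown) held 1 each. TGATGTAA was found in 0.965% of windows and in Hrk alone among the members. The AP-1 letters TGACTCA (4.46% of windows) and the CRE letters TGACGTCA (1.55%) were found in none of the 13. These patterns were chosen after the promoters were read, and a match is a description of letters, not evidence of binding.

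Values were FPKM, fragments scaled to transcript length and library size, with totals of 278310 to 339920 per library. Without read totals, the depth is unknown and no counting error can be attached to a value. Myh9 measured 27.2 to 31.6 FPKM (WT sham) and 10.9 to 12.1 FPKM (dKO sham), but 29.7 to 30.8 FPKM (WT SNI) and 24.4 to 24.6 FPKM (dKO SNI). Myh10 measured 18.1 to 23.5 FPKM (WT sham), 12.2 to 14.4 FPKM (dKO sham), 10.4 to 13.8 FPKM (WT SNI) and 4.12 to 5.31 FPKM (dKO SNI). All 13 sensory neuron markers, such as Avil, Prph and Scn10a, were detected. The 4 Y-linked genes summed to 22.7 to 38.7 FPKM (WT sham) and dKO SNI and to at most 0.0109 FPKM (WT SNI) and dKO sham. Each comparison of 2 groups below therefore also differs in Y-linked transcripts, whereas the mean of both injury comparisons has one such group on each side. Y-linked genes are carried by males, and the labels give no sex. A difference in sex between the groups, or a group label that is in error, cannot be told apart from the differences between groups. Muscle markers summed to 532 FPKM (WT sham) 2 and to at most 13.4 FPKM elsewhere.

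In uninjured WT ganglia the members covered a wide range of levels. Cdkn1a (42.5 ± 3.57 FPKM, SD, n = 2) and Ccng1 (38.7 ± 2.89 FPKM) were highest and their libraries overlapped. Gadd45a (18.6 ± 0.40 FPKM) and Gadd45g (13.1 and 18.9 FPKM) came next and also overlapped. Trp53 (6.51 and 7.49 FPKM) and Mdm2 (4.29 ± 0.36 FPKM) were intermediate and separate. Among the BH3-only genes, Bbc3 (1.35 ± 0.12 FPKM) and Pmaip1 (1.33 ± 0.18 FPKM) overlapped, while Bcl2l11 (0.357 ± 0.0077 FPKM) and Hrk (0.201 ± 0.0020 FPKM) lay below them. All BH3-only genes were thus lower per length than the cell cycle and stress genes. FPKM depends on the transcript models, and a gene on the opposite strand overlaps Cdkn1a (AC167363.2, 1046 bases) and Gadd45a (E230016M11Rik, 859 bases). Whether the libraries kept strand was not stated, so reads of these pairs cannot be told apart.

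**Figure D1:**
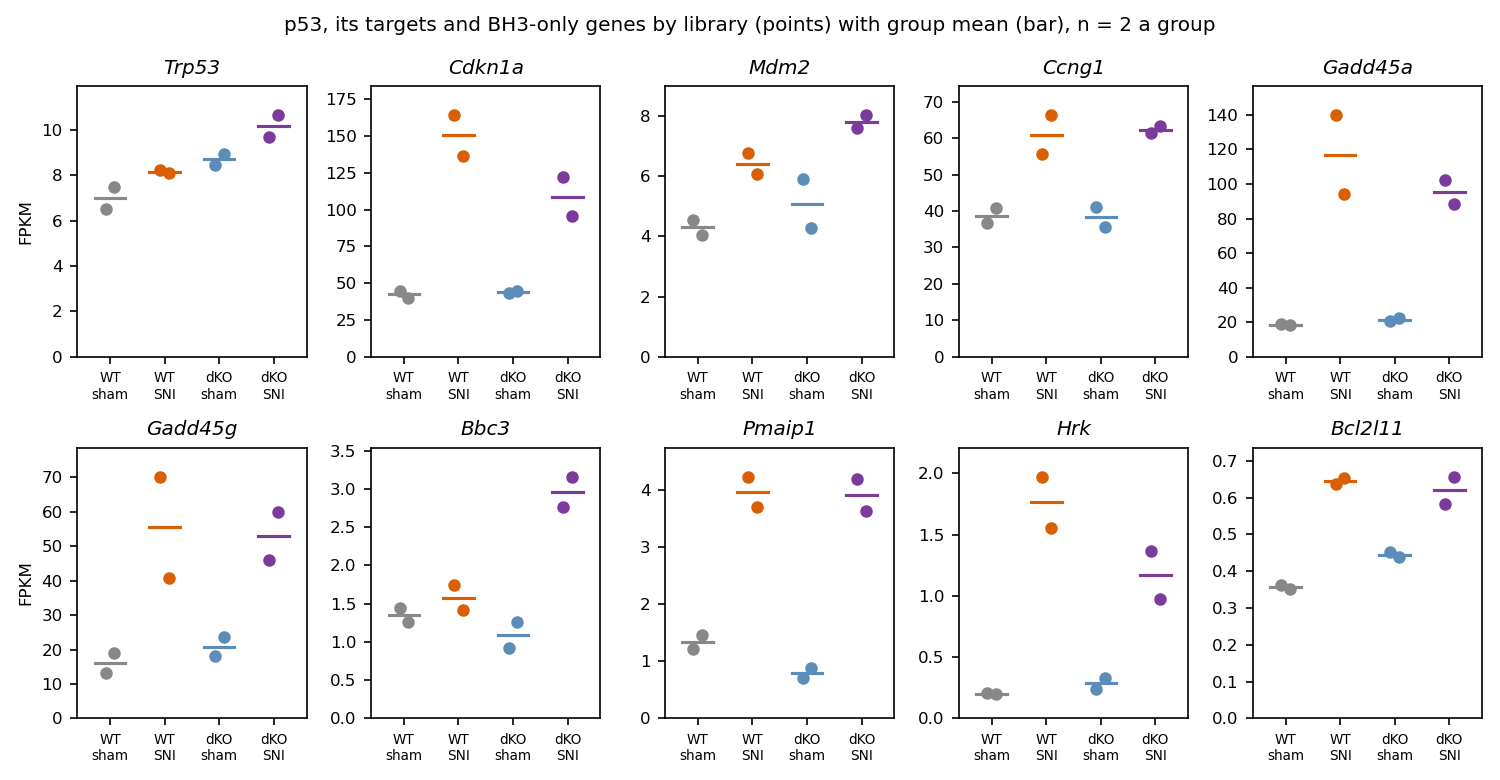
FPKM of each of the 10 genes (vertical axes from 0, own scale for each gene) in the 8 libraries, as points by group, with the mean of the 2 libraries as a bar. In 8 genes, all but Trp53 and Bbc3, every SNI library lies above every sham library.

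The first question was how these genes respond to axotomy. Most of them rose in both genotypes, led by Gadd45a, Cdkn1a, Gadd45g and the BH3-only genes Hrk and Pmaip1, while Trp53 itself changed little. The test was limma on log2(FPKM + 1), adjusted by Benjamini-Hochberg over the 12884 genes that reached 1 FPKM in 2 or more libraries. On this scale the change of low genes is understated, and ± after a change is its standard error. Of 9 members tested, 7 rose and none fell in WT SNI against WT sham, where 23.0% of all genes were called, 13.6% higher and 9.38% lower. In dKO SNI against dKO sham 8 rose and none fell, where 48.4% were called, 23.8% higher and 24.6% lower. Among all called genes in WT, 1758 were higher and 1209 lower, and this turned to 1308 and 1541 after quantile normalization. Hrk passed the filter only through SNI libraries and so had to differ. Without it the counts were 6 of 8 and 7 of 8. Bcl2l11 did not pass the filter. Within WT the SNI libraries lay above the sham libraries in 9 of all 10 members (39.8% of all genes, with 29.2% below), and within dKO in all 10 (37.7%, with 37.8% below). In 8 of all 10 members every SNI library lay above every sham library, against 17.4% of all genes tested.

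Cdkn1a encodes p21, an inhibitor of cyclin-dependent kinases. It measured 45.0 and 39.9 FPKM (WT sham), 164 and 136 FPKM (WT SNI), 43.6 and 45.0 FPKM (dKO sham), and 122 and 95.6 FPKM (dKO SNI). The sham groups overlapped, and both SNI groups were far above them. The mean rose 3.54-fold in WT (log2 change 1.80 ± 0.16, adjusted p 0.000165) and 2.46-fold in dKO (1.27 ± 0.16, adjusted p 0.000362). Among all 12884 genes this was rank 112 from the top in WT and rank 658 in dKO.

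Gadd45a encodes a small stress protein that binds PCNA, p21 and the kinase MTK1. Its libraries measured 18.9 and 18.3 FPKM (WT sham) and 140 and 93.9 FPKM (WT SNI). In dKO they measured 20.8 and 22.4 FPKM in sham and 102 and 88.7 FPKM in SNI. On the log2(FPKM + 1) scale this was the largest change of the members, 6.29-fold in WT (2.56 ± 0.18, rank 36) and 4.42-fold in dKO (2.09 ± 0.18, rank 143), with adjusted p of 4.94e-05 and 7.92e-05. Gadd45g, its close relative, measured 13.1 and 18.9 FPKM (WT sham), 70.3 and 40.9 FPKM (WT SNI), 18.0 and 23.5 FPKM (dKO sham), and 45.9 and 59.8 FPKM (dKO SNI). Its SNI libraries spread widely but stayed above all sham libraries, and it rose by 1.70 ± 0.27 in WT (adjusted p 0.0028) and 1.31 ± 0.27 in dKO (0.0037). The third member of that family, Gadd45b, did not pass the test (0.08 over both genotypes, adjusted p 0.62).

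Ccng1 encodes cyclin G1, which recruits a phosphatase to MDM2. It measured 36.7 and 40.8 FPKM (WT sham), 55.5 and 66.3 FPKM (WT SNI), 41.0 and 35.6 FPKM (dKO sham), and 61.4 and 63.2 FPKM (dKO SNI). The rise was 1.57-fold in WT and 1.63-fold in dKO, 0.64 ± 0.14 in WT (adjusted p 0.0134) and 0.69 ± 0.14 in dKO (0.00392). The WT call was lost without WT sham 1 (0.0976), WT sham 2 (0.0577) or WT SNI 2 (0.106).

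Mdm2 encodes the ubiquitin ligase that marks p53 for degradation and is itself a p53 target. Its values were 4.55 and 4.04 FPKM (WT sham), 6.76 and 6.06 FPKM (WT SNI), 5.91 and 4.26 FPKM (dKO sham), and 7.58 and 8.02 FPKM (dKO SNI). The SNI libraries lay above the sham libraries, though narrowly, as WT SNI 2 and dKO sham 1 almost met. Mdm2 rose by 0.49 ± 0.15 in WT (adjusted p 0.0482) and 0.55 ± 0.15 in dKO (0.016). The WT call was lost without any 1 of the 4 WT libraries (adjusted p 0.11 without WT sham 1, 0.251 without WT sham 2, 0.157 without WT SNI 1, 0.118 without WT SNI 2) or of the 2 dKO SNI libraries (0.0598 each). The dKO call was lost without dKO sham 2 (0.0962) or dKO SNI 2 (0.0836). Over both genotypes the rise was 0.52 ± 0.11 (adjusted p 0.0033), and leaving out any 1 library left it at most 0.0164.

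Trp53 measured 6.51 and 7.49 FPKM (WT sham), 8.23 and 8.10 FPKM (WT SNI), 8.47 and 8.95 FPKM (dKO sham), and 9.69 and 10.7 FPKM (dKO SNI). SNI was above sham within each genotype, by 1.17-fold in both, but the dKO sham libraries exceeded the WT SNI libraries. The changes of 0.20 ± 0.12 in each genotype did not pass the test (adjusted p 0.27 in WT and 0.205 in dKO). The 95% interval ran from -0.08 to 0.48 in each genotype, so a rise of more than 0.48 on this scale lies outside it.

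Of the BH3-only genes, Pmaip1 and Hrk passed the test in both genotypes and Bbc3 in dKO. Hrk entered the test only through SNI libraries, so its pass adds no support. Pmaip1 encodes NOXA, which neutralises MCL1. It measured 1.21 and 1.46 FPKM (WT sham), 4.24 and 3.70 FPKM (WT SNI), 0.711 and 0.889 FPKM (dKO sham), and 4.19 and 3.64 FPKM (dKO SNI). It rose 2.98-fold in WT (1.09 ± 0.14, adjusted p 0.00105) and 4.89-fold in dKO (1.45 ± 0.14, adjusted p 0.000115), and the SNI libraries of both genotypes overlapped. Hrk, expressed mainly in the nervous system, measured 0.203 and 0.200 FPKM (WT sham), 1.98 and 1.56 FPKM (WT SNI), 0.237 and 0.332 FPKM (dKO sham), and 1.36 and 0.977 FPKM (dKO SNI). Its mean was 8.78-fold higher in WT SNI (1.20 ± 0.16, adjusted p 0.00106) and 4.11-fold higher in dKO SNI (0.75 ± 0.16, adjusted p 0.00387).

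Bbc3 encodes PUMA, a BH3-only protein that binds all BCL2-type survival proteins. It measured 1.44 and 1.27 FPKM (WT sham) and 1.74 and 1.41 FPKM (WT SNI), and these overlapped. In dKO it measured 0.917 and 1.26 FPKM in sham but 2.77 and 3.16 FPKM in SNI. The WT change of 0.13 ± 0.15 did not pass the test (adjusted p 0.55, 95% interval -0.20 to 0.46), and it was -0.056 after quantile normalization. The dKO rise was 2.73-fold (0.93 ± 0.15, adjusted p 0.00105). The difference between both responses was 0.80 ± 0.21 with an adjusted p of 0.236, so it did not pass the threshold.

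Bcl2l11 encodes BIM. Its values were 0.362 and 0.351 FPKM (WT sham), 0.638 and 0.654 FPKM (WT SNI), 0.452 and 0.438 FPKM (dKO sham), and 0.583 and 0.657 FPKM (dKO SNI). All SNI libraries were above all sham libraries, and the means differed 1.81-fold in WT and 1.39-fold in dKO. With no filter on low values the change was 0.28 ± 0.06 in WT (limma, adjusted p 0.0292) and 0.16 ± 0.06 in dKO (0.0694).

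**Figure D2:**
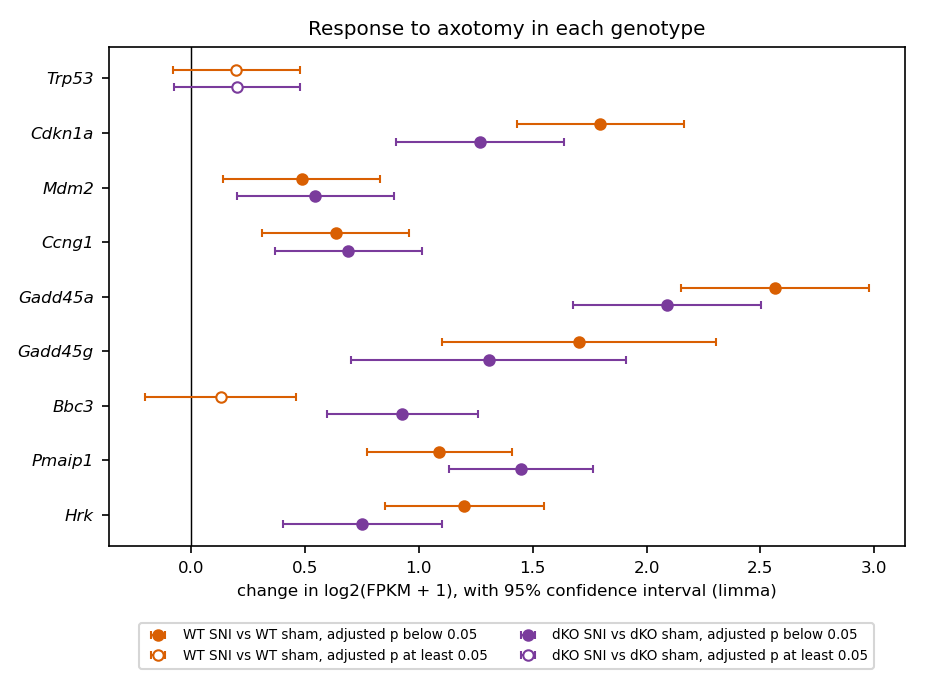
Change in log2(FPKM + 1) from sham to SNI (horizontal axis) for the 9 members tested, in WT and dKO, with 95% confidence intervals from limma. Filled points passed an adjusted p of 0.05. Gadd45a changed most in both genotypes, Trp53 passed in neither, and Bbc3 passed in dKO at 0.93 and not in WT at 0.13.

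Averaged over both genotypes, 8 of 9 members rose, where 55.0% of all genes were called, 29.5% higher and 25.5% lower, and Trp53 was the exception (0.20 ± 0.09, adjusted p 0.079). Without Hrk, which had to differ, the count was 7 of 8. The median change was 0.98 for the 9, 0.97 without Hrk and 0.04 for all genes. The averaged changes were 2.33 ± 0.13 for Gadd45a, 1.53 ± 0.12 for Cdkn1a, 1.51 ± 0.19 for Gadd45g, 1.27 ± 0.10 for Pmaip1 and 0.98 ± 0.11 for Hrk. They were 0.66 ± 0.10 for Ccng1 and 0.53 ± 0.10 for Bbc3. None of these calls was lost when any 1 library was left out.

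The ganglion is a mixture, and in bulk RNA fewer cells of a type and less RNA per cell cannot be told apart. The 13 neuron markers summed to 6847 and 7546 FPKM (WT sham), 6848 and 5266 FPKM (WT SNI), 6137 and 6913 FPKM (dKO sham), and 3998 and 2742 FPKM (dKO SNI). Of these markers 11 fell with injury over both genotypes and none rose. The 10 macrophage markers, all of which rose, summed to 61.6 to 138 FPKM in the sham libraries, 461 and 478 FPKM (WT SNI), and 825 and 959 FPKM (dKO SNI). The 10 markers of dividing cells, which all rose too, summed to 37.1 to 60.0 FPKM in sham, 71.4 and 97.9 FPKM (WT SNI), and 157 and 141 FPKM (dKO SNI). The 10 neutrophil markers summed to 695 to 1120 FPKM in sham, 1274 and 2515 FPKM (WT SNI), and 7109 and 6932 FPKM (dKO SNI). The 6 fibroblast markers, all of which rose, summed to 190 to 526 FPKM in sham, 542 and 829 FPKM (WT SNI), and 1033 and 1311 FPKM (dKO SNI). The part of these cell types in the members' changes was not tested.

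The genes most like each member across the 8 libraries were named by the highest Pearson r of log2(FPKM + 1) among 12874 other genes, as a description with no test, over libraries that share the injury contrast. Cdkn1a and Hrk followed each other at 0.996, and the gene most like both was Rnf122, a ubiquitin ligase gene (0.995 and 0.998). Epb41l4a and the RAS effector Rin1 came next for Cdkn1a (0.994 and 0.991), and the potassium channel subunit Kcnmb4 and the RHOA exchange factor Net1 for Hrk (0.994 each). Gadd45a was most like the kinase Camk1 (0.997), Fgf3 (0.996) and the macrophage growth factor Csf1 (0.996). Gadd45g was most like the NF-kB subunit Rela (0.995), Cited2 (0.994) and Stk40 (0.990). For Pmaip1 they were the focal adhesion kinase Ptk2 (0.998), Rnd1 (0.988) and the arginase Arg2 (0.984). Ccng1 was most like Bend5 (0.996), Helb (0.994) and the AP-1 gene Fosl1 (0.983). Mdm2 was most like Serpinb5 (0.985), Hoxd3 (0.978) and Rbm33 (0.975). Bbc3 was most like Pym1 (0.984), Tmem161b (0.983) and Isyna1 (0.976), whose 2 highest libraries were also those of dKO SNI.

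The second question was whether loss of the myosin genes alters these genes. Without injury no member passed the test between dKO sham and WT sham, where 0.155% of all genes did (0.0931% higher and 0.0621% lower, limma, adjusted p under 0.05). The genes called lower included all 4 Y-linked genes. At an unadjusted p under 0.05 were Trp53 (0.28 ± 0.12, adjusted p 0.453) and Pmaip1 (-0.37 ± 0.14, adjusted p 0.399). The groups did not overlap in 4 of 10 members upward and 2 downward, against 27.8% and 18.3% of all genes.

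After injury 1 of 9 members, Bbc3, was higher in dKO SNI than in WT SNI, where 24.1% of all genes were called, 10.7% higher and 13.4% lower. The groups did not overlap in 3 of 10 members upward and 2 downward, against 30.8% and 37.4% of all genes. Its mean was 1.88-fold higher (0.62 ± 0.15, adjusted p 0.0198). The call was lost without WT SNI 1 (0.0855), WT SNI 2 (0.0672) or dKO SNI 2 (0.138). Over all genes the same comparison fell from 3106 calls to 10 without WT SNI 1 and to 9 without dKO SNI 2. Cdkn1a (-0.47 ± 0.16, adjusted p 0.0638) and Hrk (-0.35 ± 0.16, adjusted p 0.121) had lower values in both dKO SNI libraries than in both WT SNI libraries without passing the test. Cdkn1a passed without dKO SNI 1 (-0.64, adjusted p 0.0341) and after quantile normalization (-0.48, 0.0472). Trp53 (0.29 ± 0.12, limma, adjusted p 0.116) and Mdm2 (0.25 ± 0.15, adjusted p 0.249) had higher values in dKO SNI. Neither passed the test. Gadd45a, Gadd45g, Ccng1, Pmaip1 and Bcl2l11 overlapped between the genotypes after injury.

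**Figure D3:**
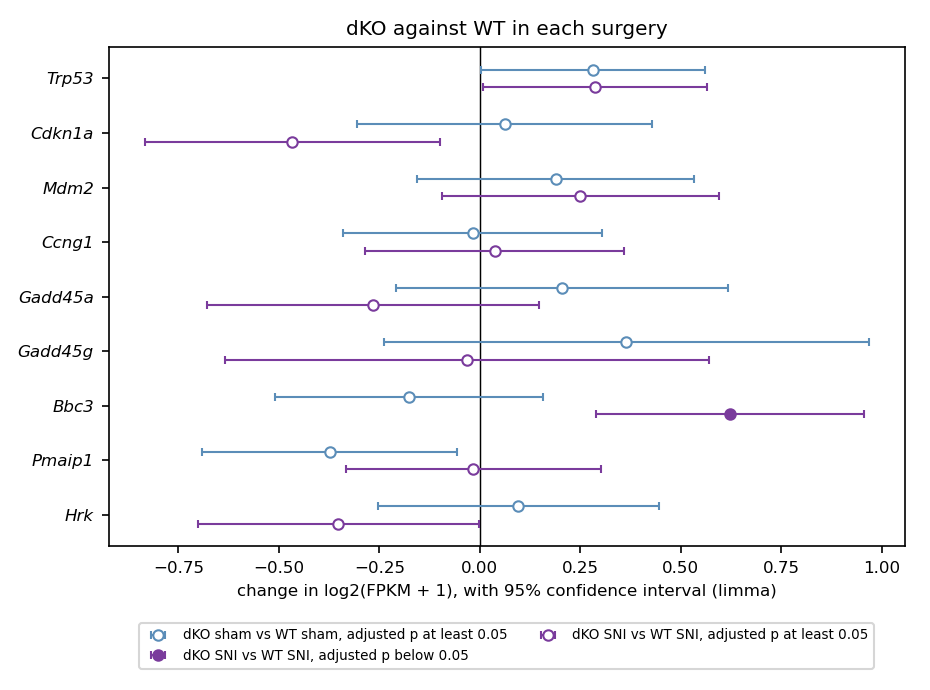
Difference in log2(FPKM + 1) between dKO and WT (horizontal axis) for the 9 members tested, in sham and in SNI ganglia, with 95% confidence intervals from limma. The filled point, Bbc3 in SNI at 0.62, is the one value that passed an adjusted p of 0.05.

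Averaged over both surgeries, Trp53 was higher in dKO (0.28 ± 0.09, adjusted p 0.0461), and no other member passed, while 22.2% of all genes did, 11.8% higher and 10.4% lower. The call was lost without any 1 library other than dKO SNI 1 (adjusted p 0.156 without WT sham 1, 0.0977 without WT sham 2, 0.114 without WT SNI 1, 0.0823 without WT SNI 2, 0.0615 without dKO sham 1, 0.106 without dKO sham 2, 0.14 without dKO SNI 2). With the replicate number as a block it was 0.0567. Bbc3 measured 0.22 ± 0.10 (adjusted p 0.143) and Pmaip1 -0.20 ± 0.10 (0.173).

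No member passed the test of the difference between the injury responses, and 7 of all 12884 genes did (0.0543%, with 0.0466% higher and 0.00776% lower). All 4 Y-linked genes were among those higher. At an unadjusted p under 0.05 were 2 members, Bbc3 (0.80 ± 0.21) and Cdkn1a (-0.53 ± 0.23, adjusted p 0.34). Hrk (-0.45 ± 0.22), Gadd45a (-0.47 ± 0.26) and Gadd45g (-0.40 ± 0.38) had smaller values in dKO, and Pmaip1 (0.36 ± 0.20) a larger one. The groups with Y-linked transcripts are divided exactly as this difference is, so it and the Y-linked difference cannot be told apart.

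The pathway around the members was read from lists chosen for it. Counts are over tested genes and over both genotypes, and low genes that passed the filter only through SNI libraries had to differ. Each count stands beside the 29.5% of all genes called higher, the 25.5% called lower and their median of 0.04. Of 31 other p53 target genes tested, 17 rose and 4 fell, with a median of 0.34. Those that rose most clearly were Btg2 (1.46 ± 0.16), an inhibitor of proliferation, the autophagy genes Trp53inp1 (1.10 ± 0.13) and Dram1 (0.80 ± 0.10), and Perp (0.81 ± 0.10). Btg2 went from 2.87 and 3.12 FPKM (WT sham) to 8.80 and 13.0 FPKM (WT SNI). The phosphatase gene Ppm1d, another brake on p53, rose by 0.36 ± 0.11, a call lost without WT sham 2 (adjusted p 0.0781) or WT SNI 2 (0.0661). The targets that fell were Tigar, Rprm, Plk3 and Gls2, named after their values were seen, at -0.60 to -0.48. In WT alone 6 of the 31 rose and none fell, against 13.6% of all genes higher and 9.38% lower. In dKO alone 16 rose and 5 fell, against 23.8% higher and 24.6% lower.

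Of 16 regulators of p53 tested, 5 were higher and 5 lower, with a median of -0.05, shares near those of all genes. Mdm4, the partner of MDM2, rose by 0.57 ± 0.10, Chek2, a kinase that phosphorylates p53, by 0.59 ± 0.10, and Cdkn2a, whose product ARF inhibits MDM2, by 1.28 ± 0.21. Cdkn2a measured 1.38 and 0.716 FPKM (WT sham), 1.55 and 2.50 FPKM (WT SNI), 0.328 and 1.3 FPKM (dKO sham), and 4.59 and 7.63 FPKM (dKO SNI). Within WT its change did not pass the test (0.56 ± 0.30, adjusted p 0.203), and within dKO it did (1.99 ± 0.30, adjusted p 0.000837). The difference between them had an adjusted p of 0.262. Trp53bp1, a DNA repair protein that binds p53, fell by 0.47 on the log2 scale.

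Of 7 survival genes of the BCL2 family tested, 3 were higher and 2 lower. Mcl1, the target of NOXA, rose by 0.65 ± 0.09 over both genotypes. In WT it went from 25.2 and 27.7 FPKM (WT sham) to 39.4 and 40.9 FPKM (WT SNI), a change of 0.59 ± 0.12. Bcl2 fell by 0.62 on the log2 scale over both genotypes. Within WT it went from 4.82 and 5.34 FPKM in sham to 3.45 and 3.97 FPKM in SNI. That WT change did not pass the test (-0.37 ± 0.13, limma, adjusted p 0.0764). Bcl2l1, which encodes BCL-XL, did not pass over both genotypes (-0.19 ± 0.12, adjusted p 0.192), and its change was -0.31 without dKO SNI 1. Bcl2a1b (1.80 ± 0.32) and Bcl2a1d (1.22 ± 0.15), near-identical copies expressed in leukocytes, rose, and their reads may be shared. Bcl2a1d reached the filter only through dKO SNI libraries and so had to differ, and its rise adds no support.

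Of 8 effectors and other BH3-only genes 5 rose and 2 fell. The pore-forming Bak1 rose by 0.73 ± 0.10, and its partner Bax by 0.40 ± 0.12, a call lost without WT sham 2 (0.0803), WT SNI 1 (0.0612) or dKO sham 2 (0.0504). Bmf rose by 0.59 ± 0.11, while Bnip3 (-0.72 ± 0.09) and Bid (-0.44 ± 0.09) fell. Among 18 caspases, apoptosome genes and inhibitors, 11 rose and 1 fell, with a median of 0.48. Casp6 (1.33 ± 0.13), the initiator Casp8 (1.19 ± 0.13) and Birc5 (1.14 ± 0.11), survivin, a gene of dividing cells, were among those that rose.

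Stress signalling genes upstream of the death genes fell more often than they rose, with 11 of 19 lower, 5 higher and a median of -0.48. In WT alone 6 were lower and 4 higher (median -0.19), against 9.38% of all genes lower and 13.6% higher. In dKO alone 11 were lower and 4 higher (median -0.63), against 24.6% lower and 23.8% higher. Over both genotypes, transcription factors of the injury response were among those that rose. Atf3 rose by 4.38 ± 0.21, Ddit3, which encodes CHOP, by 0.95 ± 0.10, and Jun by 0.58 ± 0.15. Within WT alone Jun rose by 0.98 ± 0.22 (limma, adjusted p 0.0128). Its dKO response minus its WT response was -0.80 ± 0.31 (adjusted p 0.303). The JNK3 gene Mapk10 fell by 1.01 and the neurotrophin receptor gene Ngfr by 1.54 on the log2 scale. Ngfr measured 111 and 148 FPKM (WT sham), 75.4 and 53.4 FPKM (WT SNI), 101 and 126 FPKM (dKO sham), and 34.0 and 19.5 FPKM (dKO SNI). Within WT it fell by 1.00 and within dKO by 2.08 on the log2 scale, and the difference between them had an adjusted p of 0.285. Among 8 other GADD45 and CDK inhibitor genes 4 rose and 1 fell. Those 4 were Cdkn3 (1.33 ± 0.13), a phosphatase, and the inhibitors Cdkn2c (0.94 ± 0.12), Cdkn2b (0.94 ± 0.19) and Cdkn1c (0.94 ± 0.21).

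**Figure D4:**
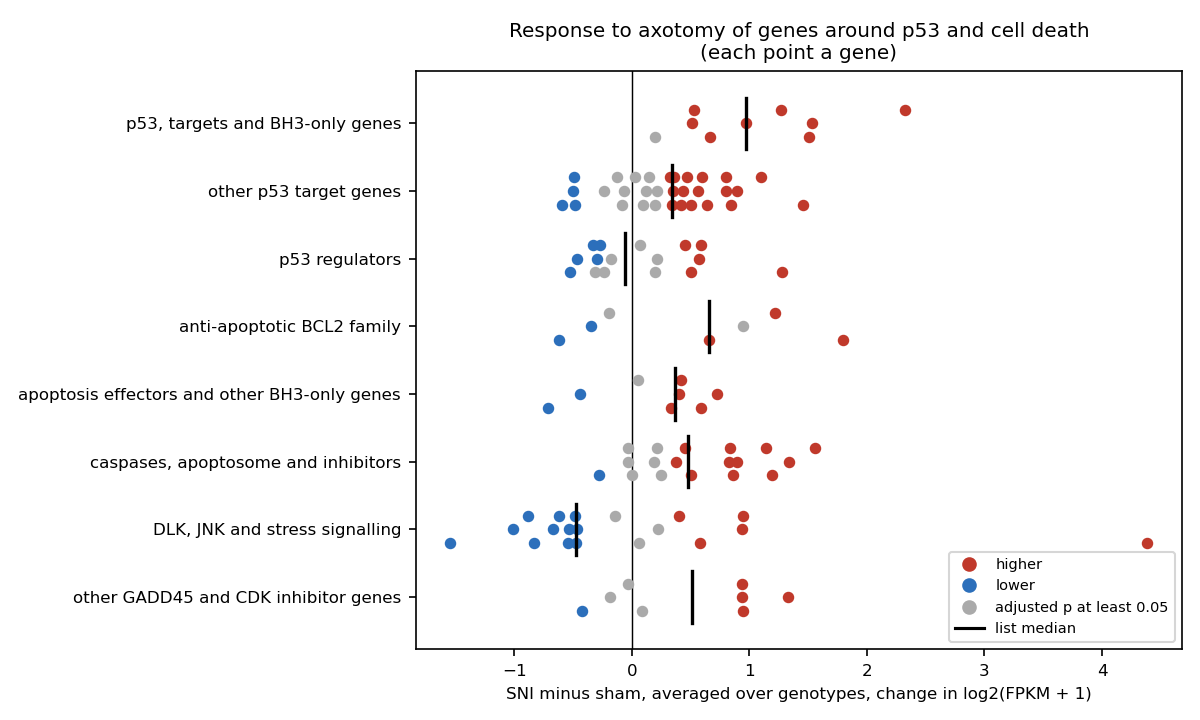
Change in log2(FPKM + 1) from sham to SNI averaged over both genotypes (horizontal axis), each point a tested gene of a list (vertical axis), coloured by its call at an adjusted p of 0.05, with the list median as a bar. The medians run from -0.48 for the DLK, JNK and stress signalling genes to 0.98 for the 9 members.

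Between the genotypes, averaged over surgeries, 5 of the 31 other p53 targets were higher in dKO and 1 lower, and 5 of the 18 caspase and apoptosome genes were higher and 1 lower. Of the 19 stress signalling genes 1 was higher and 7 were lower. Over all genes 11.8% were higher and 10.4% lower. In the same comparison all 10 dividing cell markers, all 10 neutrophil markers, 8 of 10 macrophage markers and 5 of 6 fibroblast markers were higher. Of the 13 neuron markers 8 were lower and none higher. The 13 include Avil, the gene by which Advillin-Cre is named. Avil measured 172 and 180 FPKM (WT sham) against 75.3 and 80.0 FPKM (dKO sham). After SNI it measured 143 and 112 FPKM (WT SNI) against 44.1 and 34.5 FPKM (dKO SNI). The part of these cell types in the counts was not tested. The genes chosen by smallest p in each list were Ddb2 (0.49 ± 0.10), Dram1 (0.50 ± 0.10), Mdm4 (0.44 ± 0.10), Trp53bp1 (-0.30 ± 0.09), Mcl1 (0.34 ± 0.09), Bcl2a1d (0.57 ± 0.15), Bak1 (0.43 ± 0.10) and Bad (0.36 ± 0.10). The others were Birc5 (0.76 ± 0.11), Casp2 (0.45 ± 0.09), Map2k4 (-0.56 ± 0.12), Mapk8ip2 (-0.61 ± 0.13), Cdkn2c (0.51 ± 0.12) and Cdkn1c, which did not pass (0.62 ± 0.21). Bcl2a1d reached the filter only through dKO SNI libraries and so had to differ, and its pass adds no support. Cdkn1c passed with the replicate number as a block (adjusted p 0.0241), without dKO sham 1 (0.78, 0.0422) and without dKO SNI 1 (0.84, 0.0177). Of the 13 that passed, Birc5 kept its call without any 1 library. The other 12 each lost it without at least 1, at adjusted p of up to 0.141. Ppm1d (0.17 ± 0.11), Bax (0.27 ± 0.12), Bcl2 (-0.14 ± 0.10), Bcl2l1 (0.05 ± 0.12), Jun (-0.24 ± 0.15) and Atf3 (0.44 ± 0.21) did not pass. Atf3 ranged from 0.15 to 0.72 when any 1 library was left out and passed without WT sham 2 (0.72, adjusted p 0.0326).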

How the data were processed

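The authors deposited 1 table of FPKM values, 1 column per library, tied to a sample through the column name that its label repeats. Libraries were paired-end, from total RNA with a TruSeq RNA kit, per the labels' protocols. StringTie 1.3.0, edgeR (version not named) and HISAT2 2.0.4, with GRCm38.p4, appear in the submitters' processing notes. The sources used here do not give the annotation, the handling of shared reads or any further scaling. No count model was run, since the values are not counts. The filter kept 12884 of 21878 genes, those that reached 1 FPKM in 2 or more of the 8 libraries, and log2(FPKM + 1) was fitted with limma 3.58.1 in R 4.3.3, with 4 group means, 4 residual degrees of freedom and moderation along a mean-variance trend. The threshold was a Benjamini-Hochberg adjusted p of 0.05, from two-sided tests. With 2 libraries against 2, an exact permutation test cannot go below p = 0.333, so none was used. Between the 2 libraries of a group Pearson's r was 0.984 to 0.989, and none were identical. The fit was tested on simulated data. The members and the 19 lists (212 entries, all found, 1 by an older symbol) were chosen with earlier results of these data known. The rule for named genes took all members, the 4 genes of each pathway list with the smallest p over both injury comparisons, the 2 over both genotype comparisons, 9 fixed genes and the 3 most like each member called. One gene that this rule names is not reported here. Motifs were searched in RefSeq promoter sequences.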

Additional observations from a re-analysis of the deposited data

Results flagged for a closer look

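In Bbc3 and Hrk the dKO and WT libraries did not overlap in either surgery, and the direction differed between surgeries. Over all genes, dKO sham lay above WT sham in 27.8% and below it in 18.3%. For dKO SNI against WT SNI these shares were 30.8% and 37.4%. The share of genes with opposite directions was not counted. Against WT, Bbc3 was lower in the dKO sham libraries (log2 difference -0.18 ± 0.15) and higher in the dKO SNI libraries (0.62 ± 0.15). The difference of 0.80 between them had an adjusted p of 0.236 (limma), and 0.132 to 0.627 when any 1 library was left out. Hrk was higher in dKO sham (0.10 ± 0.16) and lower in dKO SNI (-0.35 ± 0.16), a difference of -0.45 with an adjusted p of 0.372, and 0.238 to 0.774 when any 1 library was left out. The sham difference of Hrk was -0.093 after quantile normalization. Neither difference passed the threshold, and both are divided as the Y-linked transcripts are.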

How the results depend on the processing

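A filter of a mean of at least 5 FPKM removed Bbc3, Pmaip1 and Hrk and left 6 members tested. The members called were then 4 in WT, 5 in dKO and 5 over both genotypes for injury. Between the genotypes after injury, where Bbc3 had been the 1 member called, there were 0. The genes called became 1869 (from 2967), 3880 (from 6236), 4337 (from 7092) and, for the difference between injury responses, 3 (from 7). With no filter the genes called were 6 between the sham groups (from 20), 1892 between the SNI groups (from 3106) and 1142 between the genotypes averaged over surgeries (from 2866). A pseudocount of 0.1 gave 55 and a fit of the compared groups alone 32 between the sham groups. Members called between the SNI groups were 2 after quantile normalization. Members called between the averaged genotypes were 0 with no filter, median centring or no mean-variance trend. Quantile normalization reversed Bbc3 in WT injury (-0.056, adjusted p 0.825) and Hrk between sham groups (-0.093, 0.865). For Mdm2 in WT the call was lost with no filter (0.0889), a mean of at least 5 FPKM (0.0522), median centring (0.0795), quantile normalization (0.104) and no trend (0.0519). Apart from the removal of members by the stricter filter, the cause of these changes was not tested.

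Leaving out 1 library at a time gave 1099 to 3030 genes called for injury in WT (lowest without WT sham 2), 3712 to 6200 in dKO (lowest without dKO SNI 2), 9 to 31 between sham groups, 9 to 3082 between SNI groups and 416 to 3055 between averaged genotypes (lowest without dKO sham 2). The difference between injury responses had 5 to 20. Members called ranged from 0 to 2 between SNI groups and from 0 to 1 between averaged genotypes, and Bcl2l1 between averaged genotypes from -0.058 to 0.17. In such fits the lone library is assumed to vary like the other groups.

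The replicate numbers are shared by all groups, but no label says what a number marks. Deviations of same-numbered libraries correlated at -0.188 to 0.254, so the numbers were not taken as pairs. With the replicate number as a block, 47 genes were called between the sham groups, 12 for the difference between injury responses, and 0 members between the averaged genotypes.

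Over all settings, 741 values of single members kept direction and side of the threshold, 30 lost the call, 2 gained it and 2 reversed. The 741 include values that were not called in the main fit and stayed so, which had no call to lose. Read depth is unknown, so it cannot be said which low values, such as Hrk and Bcl2l11 in sham, are limited by counting.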
